A study of Mus musculus with 2 samples.

Results

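The transcripts of 6 genes that encode parts of one nuclear protein assembly were examined in progenitors of group 2 innate lymphoid cells (ILC2): the LIM-only genes Lmo1, Lmo2 and Lmo4, the adaptor gene Ldb1, and the basic helix-loop-helix (bHLH) genes Tal1 and Lyl1. They were chosen by name, with no threshold on level, but with earlier results of these data known. All 6 were found among the 27179 genes listed for each library. The data comprised 2 RNA sequencing libraries of 1 wild-type group, with no other genotype or treatment. Both were made from marrow cells of C57BL/6 animals aged 8 weeks, sorted by flow cytometry, with 8 mice combined per library. Here they are named pool 1 and pool 2 by accession. Each file is headed with the code of its counterpart, and if those headings were right the names of the pools would be exchanged.

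LIM-only proteins carry zinc-binding LIM domains that contact other proteins and do not bind DNA themselves. Ldb1 dimerises and holds LIM proteins together, and through them it joins a heterodimer of Tal1 or Lyl1 with an E protein to a GATA factor, so that the assembly occupies paired E-box and GATA sequences and can bring distant enhancers to promoters. In blood this complex is known from stem cells and from the erythroid and megakaryocytic lineages. TAL1, LYL1, LMO1 and LMO2 are also known as oncogenes of human T cell leukaemia.

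Values are given as RPKM, reads normalised to gene length and library depth, which allows levels of different genes to be compared per length. The library totals, inferred from these values and not reported, were 20216146 reads in pool 1 and 19834586 in pool 2. Detection meant at least 1 RPKM in each pool. Listed ILC2 markers were present in both, and all 10 were detected, among them Thy1 at 558 RPKM in pool 1 and 510.5 RPKM in pool 2 and the IL-7 receptor gene Il7r at 356 and 466. The antibodies of the sort were not given, and markers of other cells were also detected, with 12 of 13 erythroid, 7 of 7 neutrophil and 7 of 8 T cell markers. Of all listed genes, 40.5% were detected. In sorted bulk RNA, a smaller share of cells expressing a gene and less RNA of it per cell cannot be told apart.

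Of the 6 genes, 5 were detected, where 40.5% of all listed genes were. Lmo4 and Ldb1 were abundant, Lmo2, Lyl1 and Tal1 were low, and Lmo1 was close to the limit of reading. By mean RPKM the order was Lmo4, Ldb1, Lmo2, Lyl1, Tal1 and Lmo1. Lmo2 and Lyl1, neighbours in this order, differed in mean by less than the SD of Lmo2 between the pools, and the other neighbours differed by more than the larger of their SDs.

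**Figure D1:**
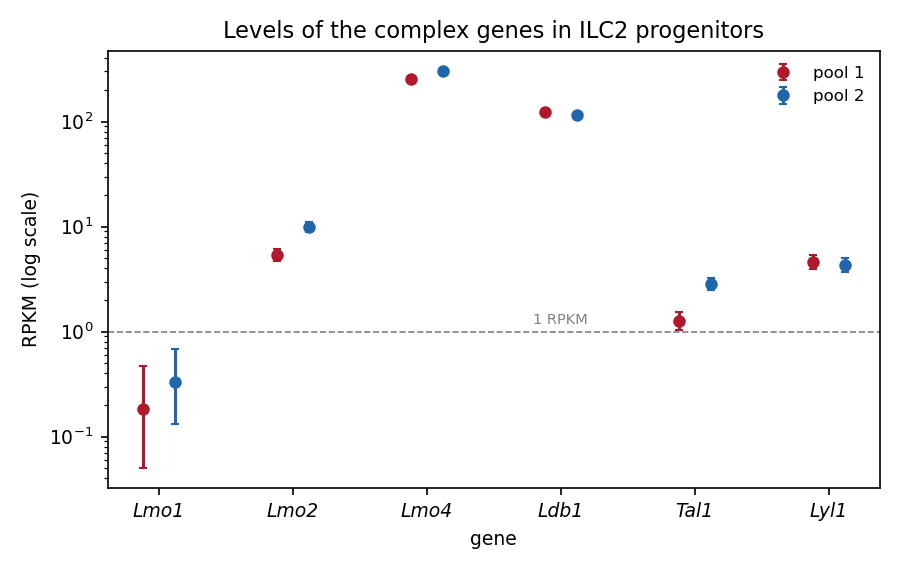
RPKM of each gene on a log scale, with pool 1 in red left of pool 2 in blue; bars are 95% intervals of the read counts (Poisson, counting error only) and the dashed line marks 1 RPKM. Lmo4 and Ldb1 lie above 100 RPKM in both pools, Lmo1 lies below 1 RPKM in both, and the pools stand clearly apart at Lmo2 and Tal1.

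Lmo4, the LIM-only gene with the widest expression among tissues, stood at 256 RPKM in pool 1 and 300.4 RPKM in pool 2 (278 ± 31.6, SD, n = 2). It ranked 236 in pool 1 and 186 in pool 2 among all listed genes, and 98.1% of detected genes had a lower mean. These values rest on at least 10592 and 12209 reads. The gene (Entrez ID 16911, minus strand) lies on chromosome 3 from 144188530 to 144205255 in GRCm38, the assembly also called mm10.

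Lmo2, the LIM-only partner that bridges Tal1 and GATA factors in blood progenitors, was at 5.36 RPKM in pool 1 and 9.95 RPKM in pool 2 (7.66 ± 3.24, SD, n = 2). Pool 1 lay at about the level of Lyl1 and pool 2 clearly above it. The gene (Entrez ID 16909, plus strand) spans 103957903 to 103981878 on chromosome 2. Lmo1, which in mouse is best known from the nervous system, had 4 reads in pool 1 and 7 in pool 2, at 0.185 and 0.330 RPKM (95% counting intervals 0.0503 to 0.473 and 0.132 to 0.679). Both values are above the 3 reads that a count of 0 would allow, which equal 0.139 and 0.141 RPKM for this gene, but their intervals reach below it. Lmo1 (Entrez ID 109594, minus strand) lies on chromosome 7 from 109138565 to 109175207. Lmo3, the remaining LIM-only gene of this family and no part of the set, was listed at 0 in both pools.

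Among the 3 LIM-only genes of the set, Lmo4 therefore held 97.9% of their summed RPKM in pool 1 and 96.7% in pool 2, Lmo2 held 2.05% and 3.20%, and Lmo1 held 0.0707% and 0.106%. The log2 ratio of Lmo4 to Lmo2, taken as for all ratios after adding 0.1 RPKM to each level, was 5.55 in pool 1 and 4.90 in pool 2 (5.23 ± 0.46, SD, n = 2). That of Lmo2 to Lmo1 was 4.26 and 4.55 (4.41 ± 0.20). Both orders were the same in the 2 pools, and a difference of 4 or more on this scale was many times the SD between them. For Lmo2 to Lmo1 that SD does not cover the counting error of Lmo1, which had 4 and 7 reads. The ratio to Lmo1 depends on the amount added, since Lmo1 was so low.

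Ldb1, the dimerising adaptor that all LIM-only proteins share, was at 124 RPKM in pool 1 and 116 RPKM in pool 2 (120.0 ± 6.09, SD, n = 2), from at least 6726 and 6142 reads. The pools were nearly level, and 94.3% of detected genes had a lower mean. Lmo4 exceeded Ldb1 per length in both pools, with a log2 ratio of 1.04 in pool 1 and 1.38 in pool 2 (1.21 ± 0.24). Ldb1 (Entrez ID 16825, minus strand) lies on chromosome 19 from 46031525 to 46048145.

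Tal1, the bHLH factor required for the formation of blood stem cells, was at 1.26 RPKM in pool 1 and 2.86 RPKM in pool 2 (2.06 ± 1.13, SD, n = 2), from at least 106 and 236 reads. Pool 1 lay close to the detection threshold, and only 6.90% of detected genes had a lower mean. Its close relative Lyl1, which can take the place of Tal1 in the complex, was at 4.61 RPKM in pool 1 and 4.31 RPKM in pool 2 (4.46 ± 0.214), from at least 168 and 154 reads. Lyl1 was thus the higher of the pair in both pools, but by unequal amounts, with a log2 ratio to Tal1 of 1.79 in pool 1 and 0.58 in pool 2 (1.18 ± 0.86). This order holds per length only. In CPM, which scale reads to library depth but not to the longer gene length of Tal1, Lyl1 was at 8.31 in pool 1 and 7.76 in pool 2 and Tal1 at 5.24 and 11.9, so that their order was opposite in the 2 pools. The adaptor stood far above both bHLH genes, with a log2 ratio of Ldb1 to Tal1 of 6.51 and 5.29 (5.90 ± 0.87). Tal1 (Entrez ID 21349, plus strand) lies on chromosome 4 from 115056426 to 115071755 and Lyl1 (Entrez ID 17095, plus strand) on chromosome 8 from 84701423 to 84704716.

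Promoter sequence is shown because the complex is defined by the 2 kinds of DNA sequence it occupies, and because the levels above span most of the range of detected genes. Windows of 250 bases before an annotated start were taken from RefSeq (GRCm38.p6) for 5 of the 6 genes, 11 windows in all. Both strands were searched for the E-box CANNTG and for GATA words, that is GATA preceded by A or T and followed by A or G, which can overlap an E-box in part. For each of 4 genes the window with the most matches that held no GENCODE exon is given from 5′ to 3′ on the strand of the gene, with matches in capitals. The Tal1 window is chr4:115056176-115056425, that of Lyl1 chr8:84701207-84701422, shown without its last 34 bases, which lie within the gene as RefSeq spans it, that of Ldb1, at an internal start, chr19:46037071-46037320, and that of Lmo4, also at an internal start, chr3:144202397-144202646.
Tal1: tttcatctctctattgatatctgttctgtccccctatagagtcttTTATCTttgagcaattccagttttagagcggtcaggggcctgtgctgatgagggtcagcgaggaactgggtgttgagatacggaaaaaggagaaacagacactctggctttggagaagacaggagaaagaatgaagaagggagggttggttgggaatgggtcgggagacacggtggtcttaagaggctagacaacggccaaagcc
Lyl1: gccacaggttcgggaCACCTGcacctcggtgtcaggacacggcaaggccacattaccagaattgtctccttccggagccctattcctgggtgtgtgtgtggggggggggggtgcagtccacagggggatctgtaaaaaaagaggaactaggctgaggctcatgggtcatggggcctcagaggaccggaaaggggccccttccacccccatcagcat
Ldb1: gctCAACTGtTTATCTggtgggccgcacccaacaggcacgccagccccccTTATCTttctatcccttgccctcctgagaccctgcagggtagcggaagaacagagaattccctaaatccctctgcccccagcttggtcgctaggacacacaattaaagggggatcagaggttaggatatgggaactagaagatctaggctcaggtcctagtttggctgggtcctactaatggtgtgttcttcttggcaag
Lmo4: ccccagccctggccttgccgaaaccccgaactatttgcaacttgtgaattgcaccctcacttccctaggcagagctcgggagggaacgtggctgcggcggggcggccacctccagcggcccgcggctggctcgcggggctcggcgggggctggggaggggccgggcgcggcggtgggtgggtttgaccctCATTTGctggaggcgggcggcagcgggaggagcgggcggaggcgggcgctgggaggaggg

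The Tal1 window held 1 GATA word and no E-box, the Lyl1 and Lmo4 windows 1 E-box each and no GATA word, and the Ldb1 window 1 E-box and 2 GATA words. In each gene's own sequence the GATA words appear as TTATCT, which is AGATAA on the other strand. Among 32851 windows of the same length in the table, 66.2% held an E-box and 26.5% a GATA word. Of the 11 windows of these genes, 6 held an E-box and 2 a GATA word, and some windows of Lmo1 and of Lmo4 overlap and share their E-box. The windows shown were picked for their matches, so no difference from all windows is read from them. The window just before the outer end of Lmo4 was 82.4% G and C and another Ldb1 window, at an internal start, 76.0%, and neither held an E-box or a GATA word, while the Tal1 window was 48.8% G and C. These matches describe the letters in the windows and are no measurement of binding.

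The pools were then compared, as ratios of pool 1 over pool 2. With 1 library on either side there is no test, and a gene was counted as apart when it was detected and at least 1.5-fold different. Lmo2 and Tal1 were apart, both lower in pool 1, and Lmo4, Ldb1 and Lyl1 were not. That is 2 of 5, where 8.45% of all 11013 detected genes were apart and 14.1% of those with a mean under 10 RPKM, the range in which Lmo2 and Tal1 lie. Lower in pool 1 by this much were 5.86% of detected genes.

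Tal1 was 0.441-fold in pool 1 relative to pool 2 (95% counting interval 0.347 to 0.556; log2 ratio -1.12), a larger difference than in 97.9% of detected genes. It was also past 2-fold, as were 2.56% of detected genes in either direction. Lmo2 was 0.539-fold (interval 0.452 to 0.641; log2 ratio -0.88), larger than in 96.6% of detected genes. Neither interval reaches 1, but these intervals cover the counting of reads and not the difference between mice. The percentages here are over detected genes of all levels. Low genes differed more often, with 14.1% of those under a mean of 10 RPKM at least 1.5-fold apart against 8.45% of all.

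Lyl1 was 1.07-fold in pool 1 relative to pool 2 (interval 0.855 to 1.34; log2 ratio 0.10), and its interval includes 1. Ldb1 was also 1.07-fold (1.04 to 1.11; log2 ratio 0.10) and Lmo4 0.851-fold (0.829 to 0.874; log2 ratio -0.23). With so many reads these 2 intervals exclude 1, although 62.2% of detected genes differed by less than Lmo4 and 32.9% by less than Ldb1. Lmo1 was 0.561-fold with an interval from 0.120 to 2.21, so that no difference was detectable at this depth.

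**Figure D2:**
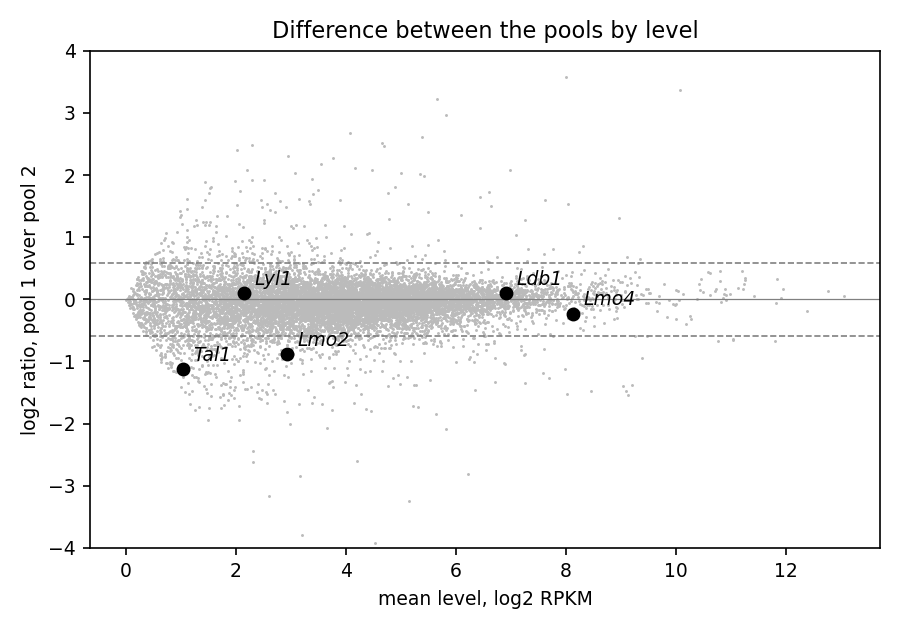
Log2 ratio of pool 1 over pool 2 against mean level (log2 RPKM) for all detected genes in grey, with the 5 detected complex genes in black; dashed lines mark 1.5-fold, and 9 genes lie outside the axis. Tal1 at -1.12 and Lmo2 at -0.88 lie below the lower line, while Lmo4, Ldb1 and Lyl1 lie between the lines.

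Markers of several other blood cells were lower in pool 1 as well. Of all detected genes, 5.86% were lower in pool 1 by at least 1.5-fold. Of 12 detected erythroid markers, 12 were lower in pool 1 and 8 of them at least 1.5-fold, with a median log2 ratio of -0.79, against -0.04 over all detected genes. Their summed level was 992 RPKM in pool 1 and 2732 in pool 2, and the haem synthesis gene Alas2 was at 21.5 and 77.7 RPKM. All 7 neutrophil markers were lower in pool 1, 6 of them by 1.5-fold or more, and they summed to 956 and 2307 RPKM. Of 9 stem and early progenitor markers 3 were detected, all lower in pool 1. Cd34 was at 1.26 and 4.48 RPKM, and Hlf, the highest of the list, differed less, at 51.2 and 59.3 RPKM. The whole list had 8 genes lower and 1 higher in pool 1 and summed to 57.9 and 73.9 RPKM, most of it from Hlf. All 7 detected T cell markers were lower in pool 1, 4 of them past 1.5-fold (summed 287 and 456 RPKM). All 8 B cell markers were lower in pool 1 (summed 36.2 and 59.7 RPKM); 2 were detected, 1 of them past 1.5-fold, with a median log2 ratio of -0.77.

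The mast cell and basophil list had 3 detected genes lower and 3 higher in pool 1 and summed to 123 and 129 RPKM, with Cma1 and Tpsb2 listed at 0. The megakaryocyte and endothelial lists were low. None of 6 megakaryocyte markers was detected, and all 6 were lower in pool 1 (summed 2.13 and 6.41 RPKM, Itga2b at 0.662 and 1.82), nor any of 6 endothelial ones (summed 1.06 and 2.97 RPKM, Egfl7 at 0.791 and 2.64, the other 5 at most at 0.104). The ILC2 markers summed to 1945 and 2199 RPKM with a median log2 ratio of -0.03, 1 of 10 past 1.5-fold in each direction. Whether the transcripts of these lists came from other cells was not tested. The part of any such cells in the pool difference of Lmo2 and Tal1 was not tested either.

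**Figure D3:**
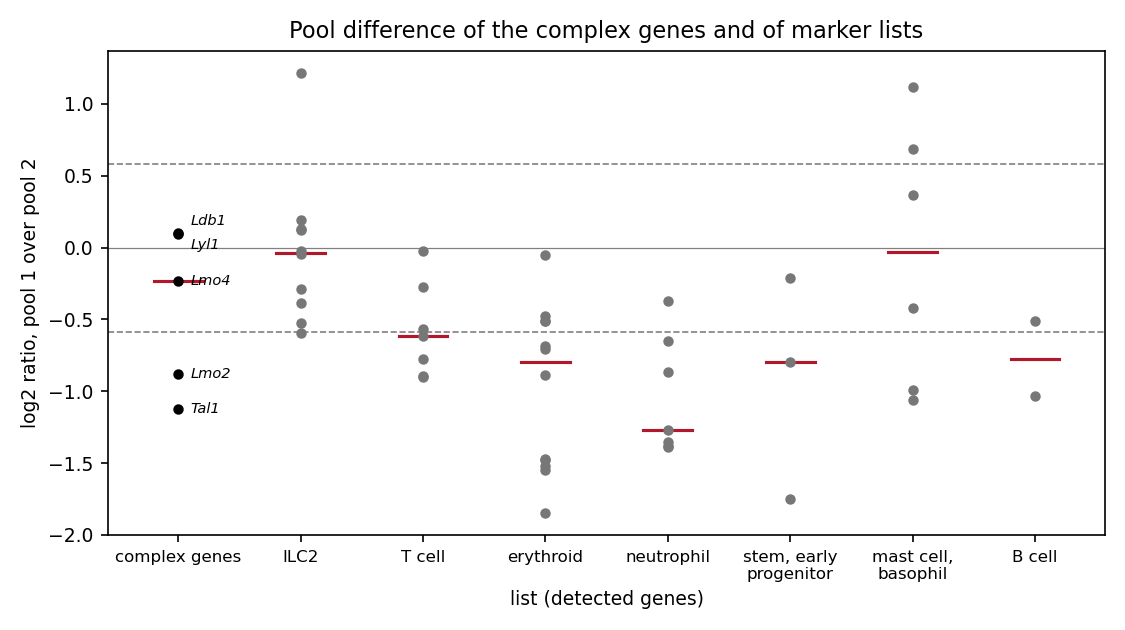
Log2 ratio of pool 1 over pool 2 for the detected complex genes in black and the detected genes of 7 marker lists in grey; red bars are list medians and dashed lines mark 1.5-fold. Erythroid, neutrophil, stem, T cell and B cell markers lie below 0, as do Lmo2, Tal1 and, less so, Lmo4. Ldb1 and Lyl1 lie near 0, and ILC2 markers lie on both sides of 0 with a median near it.

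Known partners of the 6 proteins, and relatives of them, were read from 6 lists of 53 genes. Of these, 28 were detected and 20 were under 1 RPKM in both pools, 13 of the latter being other LIM factors. Over all listed genes 40.5% were detected, the share to read beside each detected count below. Of the detected ones, 4 were at least 1.5-fold apart between the pools: Id2, Id3 and Irf2bp2 were higher in pool 1 and Klf1 was lower. The detection threshold shapes this split. Erg, Gfi1b, Gata2, Id1, Cbfa2t3 and Brca1 were lower in pool 1 by at least 1.5-fold and Runx1t1 was higher, but none was detected in both pools. Of all 10 listed DNA-binding partners, 7 were lower in pool 1 and 3 higher. The background for either direction is the 8.45% given above.

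Partners that stabilise Ldb1 were well represented. Single-stranded DNA-binding proteins of the Ssbp family protect Ldb1 from degradation, and Ssbp4 was at 84.9 RPKM in pool 1 and 83.7 RPKM in pool 2, Ssbp3 at 64.4 and 68.6 and Ssbp2 at 9.67 and 9.71. Rlim, a ubiquitin ligase that marks Ldb1 and LIM factors for degradation, was at 9.21 and 11.96 RPKM. Ldb2, the only relative of Ldb1, was listed at 0 in both pools, so all of the summed RPKM of this pair came from Ldb1. None of these genes was apart between the pools. LIM homeodomain genes, whose products also bind Ldb1, were at or near 0. Of 13 genes on the list of other LIM factors, which includes Lmo3, 0 were detected and 11 were listed at 0, the exceptions being Lhx6 with 1 read in each pool and Lmx1b at 0.0406 and 0.0827 RPKM.

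E proteins, the dimer partners of Tal1 and Lyl1, were all detected. Tcf3 was at 39.1 RPKM in pool 1 and 39.5 RPKM in pool 2, Tcf12 at 34.9 and 34.1 and Tcf4 at 4.80 and 6.21. Each of Tcf3 and Tcf12 was above the sum of Tal1 and Lyl1 in both pools. Id proteins bind E proteins and keep them from DNA, and Id2 was far above the E proteins at 709.7 RPKM in pool 1 and 287 RPKM in pool 2. Id3 was low at 3.27 and 1.90, and both Id2 and Id3 were higher in pool 1. Id1, at 0.652 RPKM in pool 1 and 1.55 RPKM in pool 2, was lower in pool 1 and not detected there, and Id4 had 1 read in pool 1 and 0 in pool 2. The Tal1-like genes Tal2, Nhlh1 and Nhlh2 were listed at 0.

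Among DNA-binding partners, Gata3 led at 292 RPKM in pool 1 and 250.3 RPKM in pool 2, close to the level of Lmo4. Gata1, the erythroid and mast cell GATA factor that works with Tal1 in red cell precursors, was at 7.42 and 7.09, and Gata2 at 0.915 and 1.48. Gata1 was thus level between the pools, unlike Tal1 and Lmo2. Klf1, an erythroid factor found with the complex at globin genes, was at 2.61 and 6.11, with a log2 ratio of -1.20. The cofactor Zfpm1, which binds GATA factors, was at 31.99 and 27.8, the ETS factor Fli1 at 33.2 and 39.2, Sp1 at 31.5 and 37.1 and Runx1 at 15.9 and 16.8. Erg and Gfi1b, at 0.246 and 0.923 RPKM in pool 1, were not detected there, and were at 1.12 and 2.44 in pool 2.

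Of 11 cofactors 9 were detected. Cbfa2t3, which encodes the co-repressor ETO2 of the erythroid Tal1 complex, was among the other 2 at 0.124 RPKM in pool 1 and 0.468 RPKM in pool 2, as was its relative Runx1t1 at 0.373 and 0.0950. The third of this family, Cbfa2t2, was detected at 6.36 and 7.13. The histone demethylase gene Kdm1a was at 29.3 and 30.2, its partner Rcor1 at 23.7 and 25.3, the deacetylase genes Hdac2 and Hdac1 at 66.1 and 63.0 and at 19.4 and 22.4, Sin3a at 22.5 and 23.9, and the acetyltransferase genes Ep300 and Kat2b at 17.7 and 16.8 and at 11.5 and 9.24. Of the 9, only Irf2bp2, a partner of ETO2, was apart between the pools, at 65.5 RPKM in pool 1 and 24.8 RPKM in pool 2.

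Lmo4 also binds proteins outside the Tal1 complex. Il6st, the gp130 receptor chain, was at 30.5 RPKM in pool 1 and 29.3 RPKM in pool 2, the transcription factor gene Deaf1 at 14.7 and 14.02, and the DNA end-processing gene Rbbp8 at 2.02 and 2.14. Brca1 was at 0.588 and 1.02 and was not detected in both. All 4 were far below Lmo4.

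**Figure D4:**
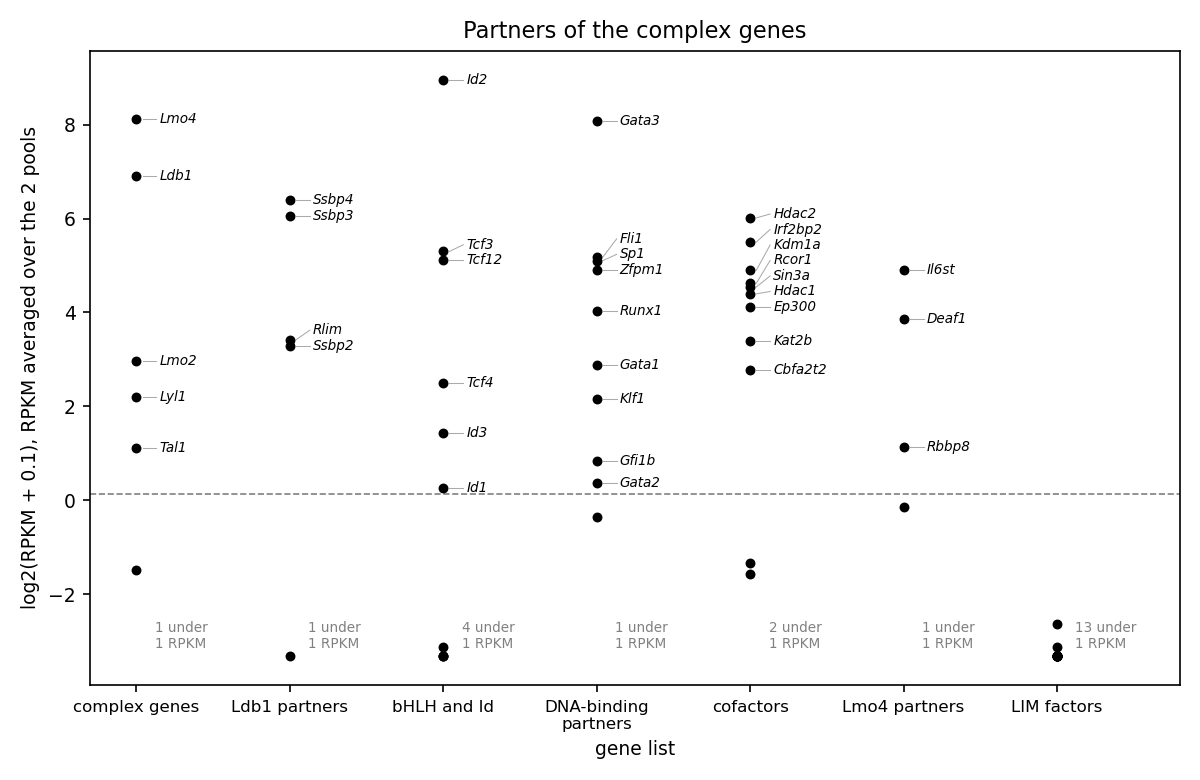
Level of every listed gene as log2(RPKM + 0.1), with RPKM averaged over the pools, by list; genes with a mean of 1 RPKM or more are named, the number below is given in grey, and the dashed line marks 1 RPKM. Id2, Lmo4 and Gata3 stand highest, Ldb1 next, and all 13 LIM factors lie at the bottom.

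The genes around each member were looked up in the same assembly, a choice made after the members' values were seen. Ldb1 at 120.0 RPKM lay between Hps6 at 10.1 ± 2.95 and Pprc1 at 14.4 ± 0.234 RPKM (SD, n = 2), and Lmo4 had Hs2st1 at 11.95 ± 1.28 on its higher side. Both members were many times their measured neighbours. Tal1 lay between Stil at 0.455 ± 0.105 and Pdzk1ip1 at 2.95 ± 0.571 RPKM, and Pdzk1ip1 was at 2.54 in pool 1 and 3.35 in pool 2. Lmo2 lay between Caprin1, 160234 bases away, at 67.0 ± 1.70, and 4931422A03Rik, 10615 bases away, at 0.214 ± 0.0246. Lyl1 lay between Trmt1, 1615 bases away, at 41.0 ± 7.02, and Dand5, 110689 bases away, at 3.68 ± 0.413. Lyl1 and the neighbouring gene Nfix (8.99 ± 2.09 RPKM) overlap by only a few bases, as Lyl1 ends at 84704716 and the span of Nfix begins at 84704712. Annotated non-coding RNAs not used here lie within Lmo1, Lmo2 and Tal1. The strand setting of the counting was not given, so reads of overlapping genes could not be told apart.

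The genes most like each member were found by distance between log2(RPKM + 0.1) values over the 2 pools, among detected genes. For Tal1 they were Ncapg2 (distance 0.10, 1.33 RPKM in pool 1 and 2.71 in pool 2) and Ypel2 (0.10, 1.17 and 2.93), and no gene lay within 0.1. For Lmo2 they were Zfp758 (0.05, 5.54 and 10.02 RPKM) and Sap30 (0.05, 5.39 and 9.59), with 6 genes within 0.1. For Lmo4 they were Ets1 (0.07, 268 and 295 RPKM) and the pseudogene Oaz1-ps (0.09, 272 and 303), whose reads may be shared with its parent gene. For Ldb1 they were Atp5k and Ndufa1, each at a distance of 0.02 and with 29 genes within 0.1, and for Lyl1 Trim3 and Brwd1, each at 0.01 with 45 genes within 0.1. With only 2 pools this measure mainly matches level.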

How the data were processed

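RNA of sorted ILC2 progenitors was sequenced in 2 libraries, after the RNeasy Micro and Illumina TruSeq RNA kits, per the labels' protocols. The authors deposited RPKM values for 27179 Entrez genes in each library. Per the submitters' processing notes, CASAVA 1.8.2, featureCounts, edgeR 3.8.2, edgeR 3.22.0 and the mm10 build were involved, with no role stated. Which aligner and which strand setting served is not given in the sources used here. Nothing says whether the pools differ beyond their mice, so SDs measure the spread between these 2 samples. No count model was used, because RPKM values are not counts; gene levels and ratios are descriptions.

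Reads were recovered from the RPKM steps with Python 3.11.15, numpy 2.4.6 and numba 0.67.0. Totals of 20216146 and 19834586 gave whole reads over a whole length of 20 to 130000 bases for 17233 of 17233 genes above 0 (100%), within the rounding of the values, and wrong totals did so for 2.45% of 2000 genes. The search was also run on simulated data, whose gene lengths covered a narrower range than the 20 to 130000 bases searched. The outcome of that run is not given here, and it is no check for genes outside its range of lengths. Recovered reads are lower bounds, since a multiple of the length fits too. Intervals (95%, exact Poisson, or exact Clopper-Pearson conditional on the sum; scipy 1.17.1) cover counting error only.

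Log2 ratios used a pseudocount of 0.1 RPKM, which understates differences of low genes. Members and lists were chosen with earlier results of these data known. The text names all members, may name any partner gene and, from marker lists, the 3 highest, the lowest and the 2-fold apart genes where they illustrate a list, and names the 2 genes most like each member. Epb42 was matched by its Entrez ID. Alternatives changed the threshold, fold, pseudocount, scaling, length division and pools used.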

Additional observations from a re-analysis of the deposited data

How the results depend on the processing

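Of 107 alternatives computed, 93 kept their result within 1 SD between the pools, within the counting interval of a pool ratio, or within 1.5 times a count, 14 moved further and 0 reversed. With 2 pools, either pool alone always lies within 1 SD of their mean. The single-pool alternatives for levels and gene ratios could therefore not move, and their count among the 93 is no sign of stability. With a threshold of 5 RPKM in both pools, 3 of the 6 genes were detected (Lmo2, Lmo4 and Ldb1), as were 3 of the E, Id and Tal1-like genes, of which 1 was then apart, and 0 of the DNA-binding partners were apart. With 0.5 RPKM, 3 DNA-binding partners and 1 partner of Lmo4 were apart. At 2-fold, 1 of the 6 genes was apart between the pools (Tal1). The log2 ratio of Lmo2 to Lmo1 was 4.83 with a pseudocount of 0.01, 2.73 with 1 and 5.25 in CPM. In CPM the ratio of Lyl1 to Tal1 was 0.022 and that of Lmo4 to Ldb1 0.82. The cause is in the alternatives' own construction: Lmo1 lies near the pseudocount, and dividing by length lowers long genes. Median-ratio scaling moved the pool ratio of Lmo4 to -0.19, and a pseudocount of 1 that of Tal1 to -0.77. Taking single pools, levels ranged from 0.185 to 0.330 RPKM for Lmo1, 5.36 to 9.95 for Lmo2, 256 to 300.4 for Lmo4, 116 to 124 for Ldb1, 1.26 to 2.86 for Tal1 and 4.31 to 4.61 for Lyl1. The number detected was 5 in either pool. Log2 ratios ranged from 4.90 to 5.55 for Lmo4 over Lmo2, 4.26 to 4.55 for Lmo2 over Lmo1, 0.58 to 1.79 for Lyl1 over Tal1, 1.04 to 1.38 for Lmo4 over Ldb1 and 5.29 to 6.51 for Ldb1 over Tal1. No paired analysis was possible because there is 1 group. The depth limits Lmo1, with 4 and 7 reads.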
